A study of Mus musculus with 2 samples.

Results

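Sox genes encode transcription factors that bind DNA through an HMG box, a domain related to that of the sex-determining gene Sry. The 10 genes described here were taken from the deposited count table by symbol, and fall into subgroup B1 (Sox1, Sox2, Sox3), subgroup C (Sox4, Sox11), subgroup D (Sox5, Sox6) and subgroup E (Sox8, Sox9, Sox10). All 10 were found among the 19595 genes of the table. The table holds 1 knockdown library, titled sh1 and carrying the genotype label KO, and 1 control library, titled psicor and carrying the genotype label WT. Both were made from total RNA of neural stem cells, taken from the brain of ICR strain mice on embryonic day 13, and the title of the series asks what Ccdc25 does in neurogenesis. The design text mentions triplicates, whereas each group has 1 column of counts here. It is not said whether a column is 1 culture, a pool or a sum, nor how many embryos gave the cells. The labels also do not say how long the short hairpin acted, or in what share of the cells.

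In the developing brain, SoxB1 factors keep neural progenitors undifferentiated, and SoxC factors act in newborn neurons. SoxE factors are known for gliogenesis: Sox9 takes part in the switch of stem cells to making glia and is later kept in astrocytes, and Sox10 drives the differentiation of oligodendrocytes together with Sox8. SoxD factors have no activation domain of their own and modulate the action of the other subgroups, for example by restraining early oligodendrocyte differentiation.

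The knockdown library held 16058407 counts assigned to genes and the control library 16549682. Levels are given as CPM, the count scaled to library size, here with edgeR's TMM factors, and every ratio or log2 fold is knockdown over control. With 1 library per group nothing could be tested, so a 95% interval beside a ratio is an exact conditional binomial interval of counting error only. It does not cover the spread between cultures. Ccdc25, the targeted gene, had 411 counts in the knockdown library against 553 in the control library, a ratio of 0.794 (0.697 to 0.904). Its level thus differed in the direction of the labels and by less than 2-fold. A difference of this size was common among the genes past the expression minimum given below. Of these, 73.5% had a higher log2 fold than Ccdc25, and 33.6% had a counting interval below a ratio of 1. Whether the short hairpin lowered Ccdc25 was not tested.

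Of the 10 Sox genes, 9 had a higher level in the knockdown library (49.7% of all genes past the minimum below) and 1, Sox11, had a lower one. The 9 include Sox5, whose log2 fold of 0.025 became -0.027 with total counts or the authors' CPM. At least 2-fold higher were 3 (Sox6, Sox8 and Sox10) and at least 2-fold lower were 0, while 7 lay within 2-fold. An expression minimum, a CPM averaged over the libraries of 1 or more, left 14158 genes of the table, of which 7.64% were at least 2-fold higher and 7.76% at least 2-fold lower. At a threshold of 1.5-fold the count of higher Sox genes was 7, beside 16% of all genes, and that of lower ones 0, beside 15.7% of all genes. The count of 7 was 6 under each of the other scalings, where Sox4 lay under 1.5-fold. The counting interval lay above a ratio of 1 for 8 Sox genes (33.2% of all genes), below it for 1 (33.6% of all genes) and included it for Sox5. Log2 folds of the Sox genes ran from -0.53 to 4.39 with a median of 0.73, whereas the median over all genes past the minimum was -0.0042. Without Sox10 the highest was 1.24 and the median stayed at 0.73. All 10 passed the expression minimum in both libraries.

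**Figure D1:**
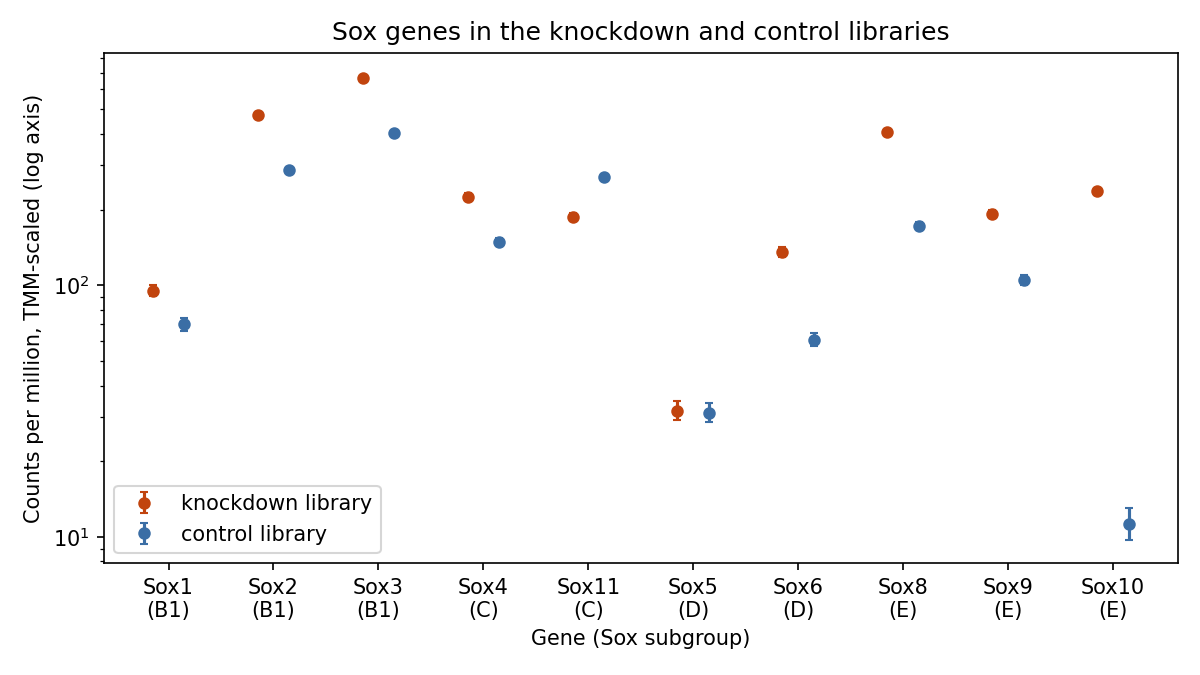
Level of each Sox gene in the knockdown library (left point of each pair) and the control library (right point), in TMM-scaled CPM on a log axis; bars are exact 95% Poisson intervals of counting error. Sox10 is the lowest of the genes in the control library at 11.3 CPM and stands at 237 CPM in the knockdown library, while both Sox5 points lie near 31 CPM.

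Subgroup E held the gene with the largest difference among the Sox genes. Sox10 (ENSMUSG00000033006, chromosome 15, 79154913 to 79164490 on the minus strand, GRCm38 positions of the table), the SoxE factor of the oligodendrocyte lineage and the neural crest, had 3737 counts in the knockdown library against 190 in the control library. These correspond to 237 and 11.3 CPM, a ratio of 21.0 (18.2 to 24.4) and a log2 fold of 4.39. Only 38 of the 14158 genes (0.268%) had a larger log2 fold. Sox8 (ENSMUSG00000024176, chromosome 17, 25565892 to 25570686 on the minus strand), a close relative that can partly replace Sox10 in oligodendrocytes, had 6410 counts in the knockdown library and 2892 in the control library. Its level was 406 CPM against 172 CPM, a ratio of 2.37 (2.27 to 2.48) and a log2 fold of 1.24. Sox9 (ENSMUSG00000000567, chromosome 11, 112782224 to 112787760 on the plus strand), the SoxE factor of radial glia and astrocytes, had 3027 counts in the knockdown library and 1776 in the control library. It stood at 192 CPM against 105 CPM, a ratio of 1.82 (1.72 to 1.93) and a log2 fold of 0.86, within 2-fold.

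The members of subgroup E thus differed in size, not in direction. The ratio of Sox10 was 8.87 times that of Sox8 (counting interval 7.61 to 10.4) and 11.5 times that of Sox9 (9.85 to 13.6). The ratio of Sox8 was 1.30 times that of Sox9 (1.21 to 1.40). Sox8 shares 329 exonic bases with 2810468N07Rik, an antisense gene that had 1828 counts in the knockdown library and 649 in the control library. The labels do not give the strandedness of the libraries, so the size of the Sox8 ratio is uncertain. Sox9 and Sox10 share no exonic base with another gene in GENCODE M21, where the position of Sox10 differs from the deposited one.

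Subgroup B1 had higher levels in the knockdown library for each of its genes, all within 2-fold. Sox2 (ENSMUSG00000074637, chromosome 3, 34650405 to 34652461 on the plus strand), which maintains neural stem cells and is also a pluripotency factor, had 7514 counts in the knockdown library and 4849 in the control library. That is 476 CPM against 288 CPM, a ratio of 1.66 (1.60 to 1.72). Sox3 (ENSMUSG00000045179, chromosome X, 60891366 to 60893430 on the minus strand), expressed throughout neural progenitors, had 10478 counts in the knockdown library and 6772 in the control library. It was the most abundant of the 10 genes, at 664 CPM against 402 CPM, with a ratio of 1.65 (1.60 to 1.70). The ratios of Sox2 and Sox3 could not be told apart by counting error, the quotient of the Sox2 to the Sox3 ratio being 1.002 (0.955 to 1.05).

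Sox1 (ENSMUSG00000096014, chromosome 8, 12395295 to 12400126 on the plus strand), an early marker of the neural fate, had 1499 counts in the knockdown library and 1181 in the control library. Its level was 95.1 CPM against 70.1 CPM, a ratio of 1.36 (1.26 to 1.47). The ratio of Sox2 was 1.22 times that of Sox1 (1.12 to 1.33), and that of Sox3 1.22 times (1.12 to 1.32). Sox2 and Sox1 each lie inside a long noncoding transcript on the same strand, without shared exonic bases. Sox2ot had 413 counts in the knockdown library against 294 in the control library, a ratio of 1.501 (1.29 to 1.75). Sox1ot had 180 against 106, a ratio of 1.81 (1.42 to 2.33). Both host transcripts were therefore higher in the knockdown library, as Sox2 and Sox1 were.

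**Figure D2:**
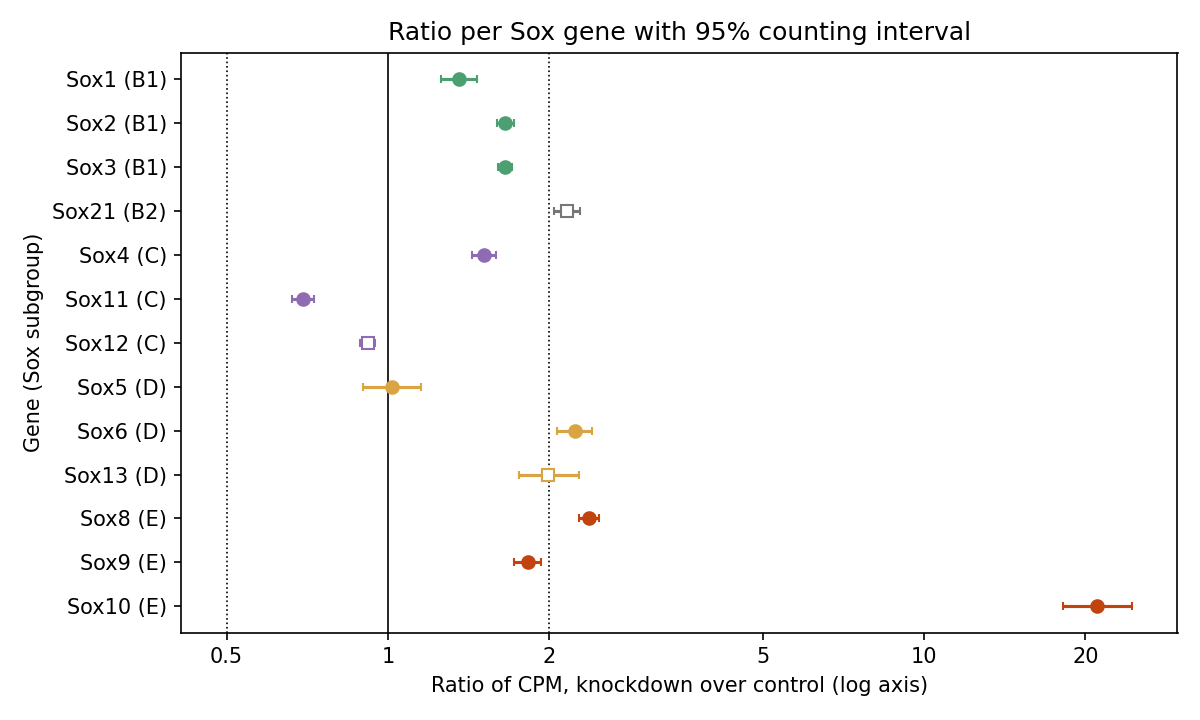
Ratio of CPM, knockdown over control, on a log axis for each of the 10 Sox genes (filled circles) and 3 further Sox genes of the table past the expression minimum (open squares), ordered by subgroup; bars are 95% counting intervals, and dotted lines mark 2-fold. Sox11 at 0.695 and Sox12 at 0.917 are the genes to the left of 1, and Sox10 at 21.0 stands far to the right of the others.

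In subgroup C the pair of genes differed in opposite directions. Sox4 (ENSMUSG00000076431, chromosome 13, 28948919 to 28953713 on the minus strand), which acts in progenitors and early neurons and also in oligodendrocyte precursors, had 3550 counts in the knockdown library and 2507 in the control library. Its level was 225 CPM against 149 CPM, a ratio of 1.51 (1.44 to 1.59) and a log2 fold of 0.60. Sox11 (ENSMUSG00000063632, chromosome 12, 27334264 to 27342574 on the minus strand), which activates neuronal genes in newborn neurons, had 2948 counts in the knockdown library and 4534 in the control library. It stood at 187 CPM against 269 CPM, a ratio of 0.695 (0.663 to 0.728) and a log2 fold of -0.53, and 82.2% of all genes had a higher log2 fold. The ratio of Sox4 was 2.18 times that of Sox11 (2.03 to 2.33).

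Sox4 shares 2616 exonic bases with Gm26735, a long noncoding gene on the opposite strand, so its value is uncertain if reads were counted without strand. Summed over the pair, subgroup C had 412 CPM in the knockdown library and 418 CPM in the control library, a ratio of 0.986 (0.953 to 1.02). The sum was thus near 1 although neither gene was. Its median log2 fold of 0.036 became -0.016 when libraries were scaled to total counts or with the authors' CPM, so no direction can be given for the subgroup. The 250 bases before the RefSeq start of each gene (GRCm38.p6, minus strand, given 5′ to 3′) are shown because these genes of 1 subgroup parted in direction. They were searched on both strands for a pair of Sox core motifs, ACAAT and ACAAAG, with matches in capitals. Sox4 (chr13:28953700-28953949) and Sox11 (chr12:27342719-27342968) held 0 matches each.
Sox4: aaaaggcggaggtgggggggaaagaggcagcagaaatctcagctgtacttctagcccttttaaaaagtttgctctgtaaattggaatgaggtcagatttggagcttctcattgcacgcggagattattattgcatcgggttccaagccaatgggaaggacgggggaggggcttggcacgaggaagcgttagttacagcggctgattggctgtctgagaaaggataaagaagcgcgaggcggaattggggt
Sox11: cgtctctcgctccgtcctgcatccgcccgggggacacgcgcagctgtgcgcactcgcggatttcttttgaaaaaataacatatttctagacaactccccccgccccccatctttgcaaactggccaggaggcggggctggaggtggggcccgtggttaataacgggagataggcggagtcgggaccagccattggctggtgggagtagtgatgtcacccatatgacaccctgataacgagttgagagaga

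ACAAT occurred in 27.7% and ACAAAG in 16.5% of the 32851 RefSeq promoter windows of the same length, and either of them in 38.8%. A match to such short words is a description of the letters and not of a bound site. The Sox4 window held 50.8% G or C bases with 11 CpG, and the Sox11 window 58.0% with 17 CpG.

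Subgroup D was split between a gene that was 2-fold higher and a gene with near-equal levels. Sox6 (ENSMUSG00000051910, chromosome 7, 115470872 to 116038796 on the minus strand), found in progenitors, in oligodendrocyte precursors and in interneurons, had 2142 counts in the knockdown library and 1026 in the control library. Its level was 136 CPM against 60.9 CPM, a ratio of 2.23 (2.07 to 2.41) and a log2 fold of 1.16. Sox5 (ENSMUSG00000041540, chromosome 6, 143828425 to 144781977 on the minus strand), known for deep-layer cortical neurons as well as for precursors of oligodendrocytes, had 501 counts in the knockdown library and 526 in the control library. That is 31.8 CPM against 31.2 CPM, a ratio of 1.02 whose interval (0.899 to 1.15) included 1. The ratio of Sox6 was 2.19 times that of Sox5 (1.89 to 2.54). Sox5 shares 1330 exonic bases with the antisense gene Sox5os1, and Sox6os, antisense to Sox6, had 14 counts in the knockdown library and 8 in the control library with no shared exonic base.

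The windows before the starts of Sox6 and Sox8 are shown because these were, beside Sox10, the genes at least 2-fold higher. The Sox6 window (chr7:116038745-116038994, minus strand) lies at the RefSeq start nearest to the start of the gene in the table, and the Sox8 window (chr17:25570687-25570936, minus strand) at the single Sox8 entry. Capitals again mark the core motifs on either strand.
Sox6: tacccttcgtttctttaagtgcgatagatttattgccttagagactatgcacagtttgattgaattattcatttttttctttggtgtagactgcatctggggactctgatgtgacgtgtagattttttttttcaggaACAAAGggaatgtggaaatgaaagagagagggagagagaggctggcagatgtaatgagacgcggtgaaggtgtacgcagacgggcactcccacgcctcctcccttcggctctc
Sox8: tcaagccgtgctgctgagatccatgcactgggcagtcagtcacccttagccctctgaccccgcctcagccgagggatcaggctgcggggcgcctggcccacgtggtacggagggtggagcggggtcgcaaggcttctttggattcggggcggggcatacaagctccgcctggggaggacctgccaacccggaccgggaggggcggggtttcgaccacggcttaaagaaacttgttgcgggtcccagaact

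The Sox6 window held 1 match, an ACAAAG, and the Sox8 window 0. RefSeq gives 6 windows for Sox6, which held from 1 to 4 matches each, and the one printed is among the 3 with 1 match. The windows differed in base composition, with 45.2% G or C and 9 CpG for Sox6 against 65.6% and 18 CpG for Sox8. RefSeq windows were matched for 7 of the 10 Sox genes. Those not matched were Sox3, Sox9 and Sox10.

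Levels between genes were compared as CPM per kilobase of exon, using the union of all exons of each gene in GENCODE M21. On this scale Sox3 led in both libraries, with 322 CPM per kb in the knockdown library and 195 in the control library, followed by Sox2 with 232 against 140 and Sox8 with 130 against 55.0. Sox10 was 4th in the knockdown library at 77.7 CPM per kb and 9th in the control library at 3.70. Sox11 was 7th in the knockdown library at 22.5 and 4th in the control library at 32.4. Sox4 (46.9 against 31.0 CPM per kb) was 5th and Sox9 (46.4 against 25.5) 6th in both libraries. Sox1 (19.7 against 14.5), Sox6 (9.16 against 4.10) and Sox5 (2.21 against 2.17) were low in both. The unions for Sox5 and Sox6 span 14376 and 14832 bases over many isoforms, which lowers their values per kilobase relative to the single-exon genes Sox1, Sox2, Sox3, Sox4 and Sox11.

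Of the summed CPM per kb of the 10 genes, subgroup E made up 28.0% in the knockdown library and 16.7% in the control library. Subgroup B1 made up 63.1% against 69.4%, subgroup C 7.64% against 12.6% and subgroup D 1.25% in both. SoxB1 genes therefore held the largest part in both libraries. Within subgroup E, Sox10 made up 30.5% of the CPM per kb in the knockdown library and 4.39% in the control library, Sox8 51.2% against 65.4%, and Sox9 18.2% against 30.3%. The level of Sox10 per kb was 1.67 times that of Sox9 in the knockdown library and 0.145 times in the control library. The level of Sox2 per kb was 0.720 times that of Sox3 in the knockdown library and 0.719 times in the control library. The quotient of Sox4 to Sox11 per kb was 2.09 in the knockdown library and 0.958 in the control library.

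**Figure D3:**
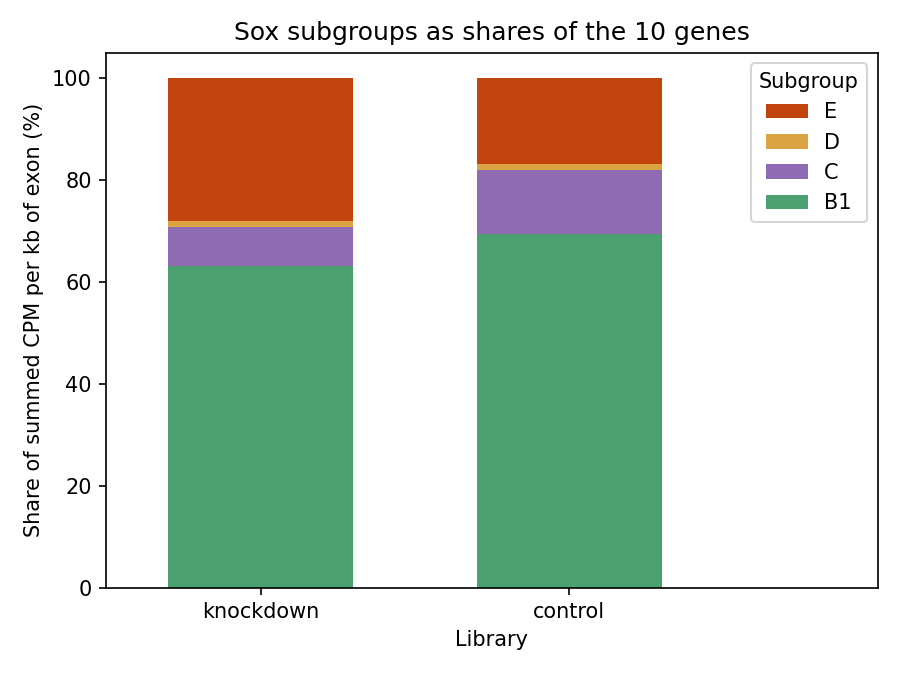
Subgroups B1, C, D and E as shares, in percent, of the summed CPM per kb of exon of the 10 Sox genes, in the knockdown library (left bar) and the control library (right bar). Subgroup E takes 28.0% of the left bar and 16.7% of the right one, and subgroup C 7.64% and 12.6%.

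The table holds 41806 counts on the 10 genes in the knockdown library and 26253 in the control library, 0.260% and 0.159% of all counts. Summed CPM was 1236 in the knockdown library against 760 in the control library for subgroup B1, a ratio of 1.63 (1.59 to 1.66). It was 835 against 288 for subgroup E, a ratio of 2.90 (2.80 to 2.995), and 168 against 92.1 for subgroup D, a ratio of 1.82 (1.71 to 1.94). The sums weight abundant genes most, so that of subgroup D rests mainly on Sox6.

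Of 10 further Sox genes looked for (Sox7, Sox12, Sox13, Sox14, Sox15, Sox17, Sox18, Sox21, Sox30 and Sry), 5 were matched in the table and 3 passed the expression minimum. Sox21, a SoxB2 factor that counteracts SoxB1 activity, had 3770 counts in the knockdown library and 1869 in the control library, 239 against 111 CPM. Its ratio of 2.16 (2.04 to 2.28) was 1.59 times that of Sox1 (1.44 to 1.75), but Sox21 shares 713 exonic bases with Gm4675 on the opposite strand, which had 81 and 25 counts. Sox13, a SoxD factor, had 43.5 CPM in the knockdown library and 21.8 CPM in the control library, a ratio of 1.99 (1.75 to 2.27). The ratio of Sox6 was 1.12 times that of Sox13, with an interval that included 1 (0.964 to 1.30). Sox12, the third SoxC gene, had 409 CPM in the knockdown library and 446 CPM in the control library, a ratio of 0.917 (0.886 to 0.948). It thus lay between Sox4 and Sox11. The SoxF gene Sox7 had 1 count in each library, and Sox30 had 9 counts in the knockdown library and 6 in the control library, too few to show a difference.

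**Figure D4:**
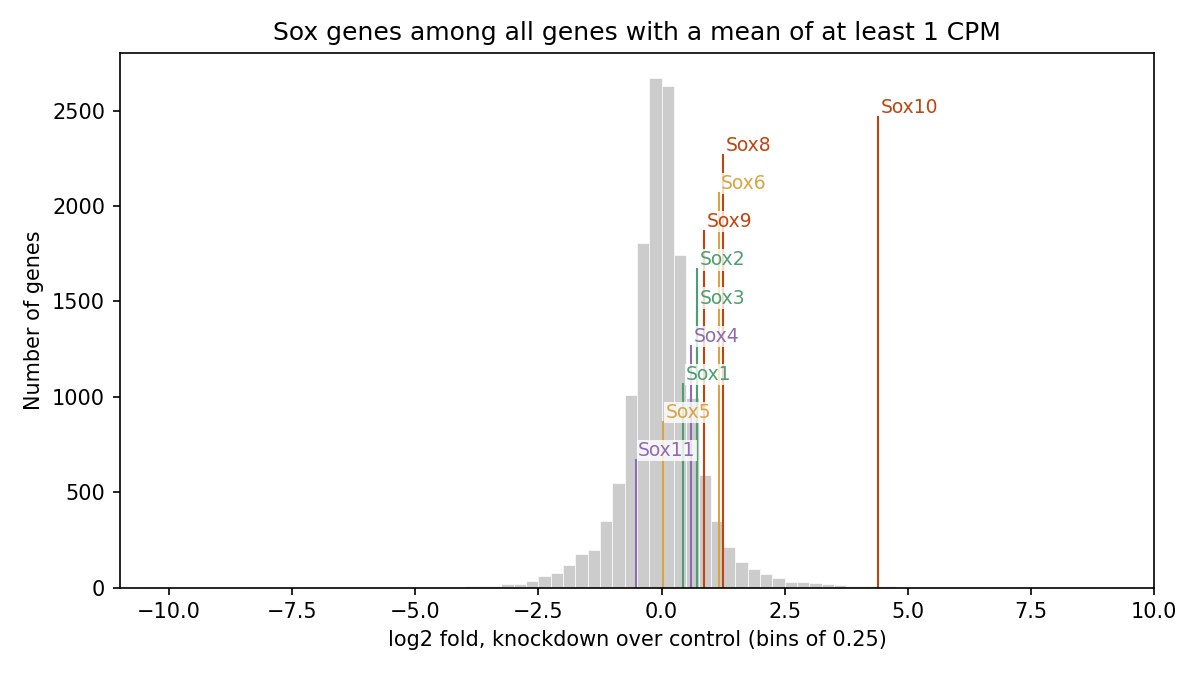
Distribution of the log2 fold, knockdown over control, over the 14158 genes past the expression minimum (grey, number of genes per bin of 0.25), with a line for each of the 10 Sox genes coloured by subgroup; the height of a line only separates the labels. Sox11 at -0.53 is the line left of 0, and Sox10 at 4.39 lies in the far right tail.

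Lists of partners and targets known for each subgroup were read beside these values, counting only genes past the expression minimum. The lists were chosen with earlier results of these data known, so their counts beside the shares of all genes are description only. Of 12 SoxB1 partners and targets, 12 were above their control level, beside 49.7% of all genes. At least 2-fold higher were 3 of the 12 (7.64% of all genes), 0 were 2-fold lower (7.76% of all genes), and the median log2 fold was 0.57. Hes5, a Notch effector in progenitors, had 45.7 CPM in the knockdown library and 13.8 CPM in the control library, a ratio of 3.32 (2.86 to 3.86), and overlaps the exons of an antisense gene by 433 bases. Msi1, an RNA-binding protein of neural stem cells, stood at 332 against 139 CPM, a ratio of 2.39 (2.27 to 2.51). Chd7, a chromatin remodeller that binds Sox2, had a ratio of 2.02 (1.87 to 2.18). Pax6, a partner of Sox2 in the eye and forebrain, had a ratio of 1.98 (1.79 to 2.205), just within 2-fold.

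The SoxC list had a median below 0, with 7 genes below and 2 above their control level (49.7% of all genes above). Of 9 SoxC targets in newborn neurons, 4 were at least 2-fold lower (7.76% of all genes) and 0 at least 2-fold higher (7.64% of all genes). Within 2-fold lay 5. The median log2 fold was -0.90. Stmn2, a microtubule regulator of growing axons, had 135 CPM in the knockdown library and 514 CPM in the control library, a ratio of 0.262 (0.25 to 0.275). Tubb3, the neuronal beta-tubulin and a target of Sox4 and Sox11, stood at 344 against 1098 CPM, a ratio of 0.314 (0.304 to 0.323). Dcx, a microtubule-binding protein of migrating neurons, had a ratio of 0.347 (0.325 to 0.369), and Stmn1 one of 0.483 (0.470 to 0.496). These genes and Elavl3, with a ratio of 0.537, lay further below their control level than Sox11 did, and Tead2 at 0.757 (0.724 to 0.790) and Elavl4 at 0.869 (0.767 to 0.984) did not. The genes above their control level were Prox1 with a ratio of 1.28 (1.05 to 1.57) and Map2 with 1.08 (1.05 to 1.11). Elavl3, Tead2, Elavl4, Prox1 and Map2 are named beyond the fixed rule, after their values were seen.

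Markers of newborn neurons overlap with this list, and 9 of 10 were below their control level, 6 of them at least 2-fold (7.76% of all genes). Their summed level was 1499 CPM in the knockdown library and 3484 CPM in the control library, and none was at 0 in either library. In bulk RNA, fewer cells of a type and less RNA per cell cannot be told apart. The part of neuron number in the Sox11 value was not tested.

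The lists tied to Sox9 had medians above 0. One list held 6 cartilage-type matrix genes that Sox9 activates with Sox5 and Sox6 in chondrocytes. At least 2-fold higher were 4 of them (7.64% of all genes), and 0 were 2-fold lower (7.76% of all genes). The median log2 fold was 1.59. Of the 11 genes listed, 9 were matched and 3 of these were under the minimum, among them Acan, the cartilage proteoglycan, with 8 counts in the knockdown library and 25 in the control library. The genes at least 2-fold higher were the collagen genes Col9a1, Col9a2, Col9a3 and Col2a1. Col11a1 had a ratio of 1.06 (0.905 to 1.25) and Col11a2 one of 1.06 (0.871 to 1.30), so both intervals included 1. Acan, Col11a1 and Col11a2 are named beyond the fixed rule, after their values were seen. Col9a3 was the most abundant, at 165 CPM in the knockdown library and 46.9 CPM in the control library, a ratio of 3.52 (3.25 to 3.82). It shares 234 exonic bases with Tcfl5 on the opposite strand, which had 37 and 34 counts. Col9a2 had 187 counts in the knockdown library against 40 in the control library, and Col2a1 had 71 against 29. Col9a1 had 56 against 4, so that its ratio of 14.96 had a wide interval (5.53 to 56.8).

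Of 7 glial genes linked to Sox9, 7 were above their control level (49.7% of all genes) and 3 exceeded 2-fold (7.64% of all genes). The median log2 fold was 0.76. Gfap, the astrocyte filament, had 481 CPM in the knockdown library and 3.09 CPM in the control library, a ratio of 156 (119 to 209). Mmd2 had 328 against 41.5 CPM, a ratio of 7.89 (7.29 to 8.55), and Apcdd1 a ratio of 2.37 (2.15 to 2.60). Both are induced by Sox9 with Nfia in the embryonic spinal cord. Slc1a3, a glutamate transporter of radial glia and astrocytes, had 582 against 344 CPM, a ratio of 1.69 (1.64 to 1.75). All 9 astrocyte markers were above their control level (49.7% of all genes), and none was at 0. The summed level of these markers was 1956 CPM in the knockdown library and 549 CPM in the control library. Their part in the Sox9 value was not tested.

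Sox10 targets known from oligodendrocytes had the highest median log2 fold of these lists, 2.73. Of 11 past the minimum, 10 exceeded 2-fold upward (7.64% of all genes) and 0 downward (7.76% of all genes). Mag, a myelin adhesion protein, had 134 counts in the knockdown library and 3 in the control library, a ratio of 47.7 (15.98 to 234). Myrf, the transcription factor that works with Sox10 in myelination, had 50.2 CPM in the knockdown library and 2.196 CPM in the control library, a ratio of 22.9 (16.4 to 32.7). Mbp, a structural protein of myelin, had a ratio of 13.02 (10.9 to 15.7). The gene of this list that was lower was Mog, a late myelin gene with 11 counts in the knockdown library and 24 in the control library, named after its value was seen. A further 4 listed targets were under the minimum.

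**Figure D5:**
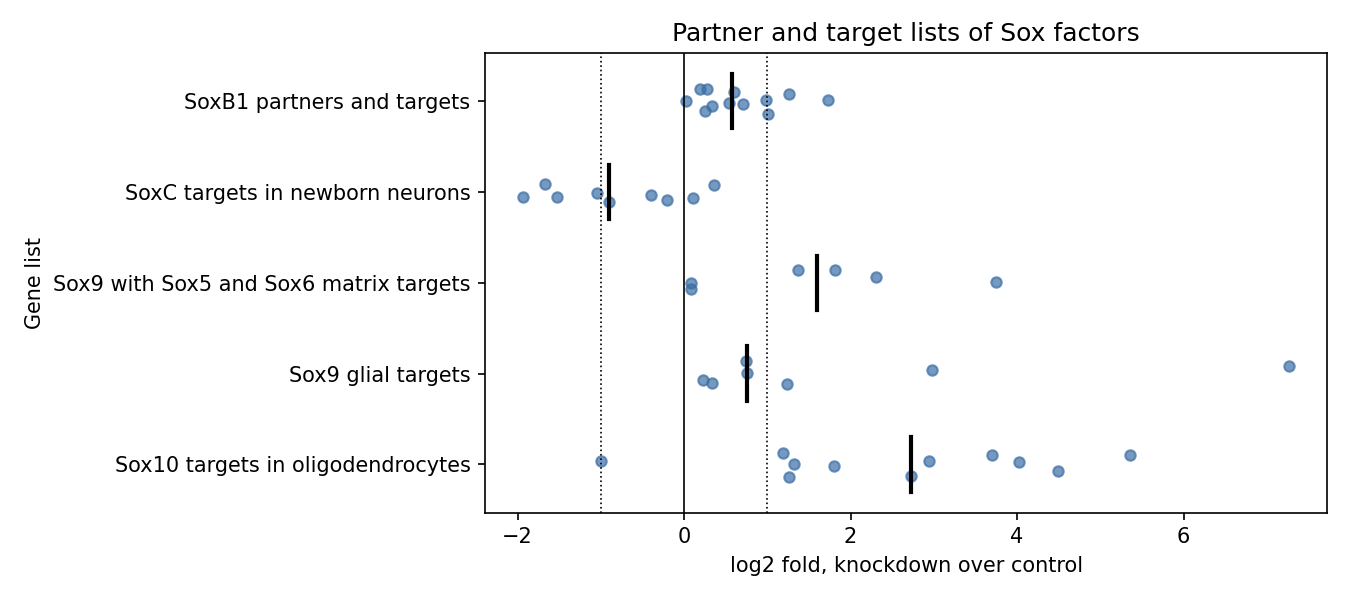
Log2 fold, knockdown over control, of each gene past the expression minimum in 5 lists of Sox partners and targets (points, spread vertically only for legibility), with the median of each list as a black bar and dotted lines at 2-fold. The medians are 0.57 for the SoxB1 list, -0.90 for the SoxC list, 1.59 and 0.76 for the Sox9 lists and 2.73 for the Sox10 list.

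The ratio of Sox10 was set beside those of lineage genes with known places in oligodendrocyte development. It could not be told apart from that of Myrf by counting error (quotient 0.919, interval 0.623 to 1.32). It was 1.61 times that of Mbp (1.27 to 2.05) and 2.73 times that of Pdgfra (2.24 to 3.33), the growth factor receptor of oligodendrocyte precursors. It was 9.25 times that of the precursor proteoglycan Cspg4 (7.79 to 11.0) and 16.3 times that of Olig2 (14.1 to 19.0), the bHLH factor that specifies the lineage. Against Gpr17, a receptor of immature oligodendrocytes, it was smaller, with a quotient of 0.240 (0.169 to 0.334). Olig2 was abundant in both libraries, at 1401 CPM in the knockdown library and 1087 CPM in the control library, whereas Sox10 was at 11.3 CPM in the control library.

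All 8 markers of oligodendrocyte precursors were above their control level (49.7% of all genes), 5 of them at least 2-fold (7.64% of all genes). The summed level of these markers was 5127 CPM in the knockdown library and 3393 CPM in the control library. Of 7 oligodendrocyte markers that passed the minimum, 6 exceeded 2-fold upward (7.64% of all genes). Most of these 7, and some of the precursor markers, are also among the Sox10 targets above. The sum of the 7 with 1 further marker was 839 against 105 CPM. Neither of these marker lists had a gene at 0. The part of these cells in the Sox10 and Sox8 values was not tested. Sox10 also marks neural crest cells and their Schwann and pigment cell descendants. Of 9 such markers 6 were matched and 3 passed the minimum, with a summed level of 7.55 CPM in the knockdown library and 4.51 CPM in the control library. Of these 3, 2 were at least 2-fold higher (7.64% of all genes). Dct, a pigment cell enzyme, had 42 counts in the knockdown library against 1 in the control library, and Mitf had 45 against 20. Ngfr was lower at 27 against 45 counts, with an interval that included 1 (0.383 to 1.06). Tfap2b, under the minimum, had 0 counts in the knockdown library against 6 in the control library.

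The cell type label was checked against markers of neural stem cells, all 10 of which passed the expression minimum. Their summed level was 8167 CPM in the knockdown library and 6383 CPM in the control library. Above their control level were 9 of 10 (49.7% of all genes), and 2 were at least 2-fold higher (7.64% of all genes). Most of these markers, with Hes5 and Msi1 as the 2, are also in the SoxB1 list above, so these counts are not a separate result. The marker below was Hes1, at 35.0 against 58.3 CPM, a ratio of 0.601 (0.540 to 0.667). Hes1 is named after its value was seen. Mesenchyme markers summed to 46.2 CPM in the knockdown library and 334 CPM in the control library, with Lum at 0 in the knockdown library. Acta2 was the largest term, at 22.8 against 261 CPM, and Pdgfrb, a receptor of pericytes and mesenchyme, was higher at 5.14 against 1.13 CPM, a ratio of 4.56 (2.74 to 7.95). Microglia and macrophage markers summed to 12.05 against 38.6 CPM, and Csf1r, Cx3cr1, C1qb, C1qc and Ptprc were at 0 in the knockdown library. Endothelial markers summed to 2.54 against 4.93 CPM, with Cdh5 at 0 in the knockdown library, and the 2 matched erythroid markers to 0.380 against 0.415 CPM. The part of these cell types in the Sox values was not tested.

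The authors' deposited table marks 3 of the 10 Sox genes as significant, Sox6, Sox8 and Sox10, all as higher in the knockdown library. Over all 19595 genes of the authors' deposited table, such a mark is set as higher for 8.48% and as lower for 10.2%. Genes marked in the authors' deposited table all differ by more than 2-fold there. The test behind the mark is not named, and with 1 column per group it has no replicate spread to draw on.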

How the data were processed

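RNA sequencing of 1 knockdown and 1 control library was taken as the authors deposited it, as raw counts per gene per the file headers. TopHat2 2.0.12, Bowtie2 2.2.3 and HTSeq 0.6.0 are named with mm9 in the submitters' processing notes, without roles or settings. Of the 10 Sox genes, 9 stand at the position of GENCODE M21 (GRCm38) and Sox10 does not. Positions are given as deposited. The exonic length and overlaps of Sox10 use its GENCODE M21 model, so its values per kilobase are less certain. The authors also deposited CPM (1 factor per library), a fold ratio, its log2 and p-values with no named test. The deposited adjusted p-value is below the p-value for 11417 genes, so neither is used.

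Counts were scaled with TMM (edgeR 4.0.16, factors 0.982 for knockdown and 1.02 for control). Log2 folds use a prior count of 0.5, and CPM and ratios use none. The expression minimum was 1 CPM, averaged over the libraries. A floor of 3 counts is 0.190 CPM in the knockdown and 0.178 CPM in the control library. Intervals (95%, scipy 1.17.1) cover counting error only, since each group has 1 library. They may be too narrow even for that error, because PCR copies of a fragment are not separate molecules. A quotient of 2 ratios has the interval of a conditional odds ratio. The calculation was tested on simulated data.

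Exonic lengths and overlaps come from GENCODE M21, and promoter windows from RefSeq (GRCm38.p6). Named genes are the 10 Sox genes, the other Sox genes matched, Ccdc25 and up to 4 genes of each partner or target list by absolute log2 fold. Single values of some list genes are not reported here. Genes compared with Sox10 and the noncoding and antisense genes were chosen after their values were seen. The Sox genes and all lists were chosen with earlier results of these data known. Alternatives were DESeq2 1.42.0 size factors, total counts, the authors' CPM, a prior count of 5, a threshold of 1.5-fold, and a minimum of 0 or 10 CPM.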

Additional observations from a re-analysis of the deposited data

How the results depend on the processing

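Of 40 log2 folds of the Sox genes under other scalings or a prior count of 5, 38 stayed inside the gene's counting interval, 2 (both Sox3) moved outside it, and the largest shift was 0.052. Sox5 changed sign under total counts and the authors' CPM, inside its interval. The median log2 fold of subgroup C was -0.016 with total counts and -0.016 with the authors' CPM, against 0.036 with TMM. At 1.5-fold, 7 Sox genes were higher, and 2259 of all genes were higher and 2218 lower, against 1082 and 1098 at 2-fold. Of all genes, 500 were higher and 496 lower with a minimum of 10 CPM, and 2286 and 2475 without a minimum. These counts differ by construction, since the threshold or the number of genes counted differs. At 1.5-fold the count of 7 higher Sox genes was 6 with DESeq2 size factors, total counts or the authors' CPM, a combination added after seeing the data. The number of Sox genes at least 2-fold higher was 3 under every other alternative run. No paired analysis was possible because each group has 1 library. Depth limits the values of Sox7 and Sox30, and no alternative replaces the missing replicates.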
